A study of Mus musculus with 48 samples.

Results

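Monocytic macrophages kept with Ito cells were compared after 3 days and after 1 day, on the 3 arrays of each time, 6 of the 48 arrays of the series. The members were taken by their titles and no array was left out. Each culture had begun with blood monocytes of BALB/c male mice, sorted by the marker CD115, and had first spent 1 day in MCSF. Ito cells were then added for 3 days in one group (4 days of culture in all) and for 1 day in the other (2 days in all). No genotype other than the strain is given. For comparison there were monocytic macrophages kept in MCSF alone or with CD146 cells, sinusoidal endothelial cells of the liver, and Kupffer cells kept with Ito cells, each after 3 days and 1 day with 3 arrays. The labels leave unsaid whether the Ito cells were held apart from the macrophages or taken out before lysis, and whether MCSF stayed in the medium beside them. Replicates are called biological in the titles, but how many animals stood behind each is not said, so p-values measure the spread between these cultures.

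Monocytes that leave the blood become macrophages under MCSF, the ligand of the receptor Csf1r. Ito cells, also called hepatic stellate cells, store vitamin A, and when activated they become the collagen-forming cells of the liver. Macrophages and Ito cells are known to act on each other in liver injury and repair: macrophages give interleukins, TGF-beta and PDGF, and later take up dead cells, release growth factors and clear matrix.

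The deposited values are log2 signals. The 1 day arrays lay lower, with a median over genes of 4.61 to 4.65 against 5.22 to 5.30 on the 3 day arrays, so the 6 arrays were quantile normalized before the test. Kupffer Ito and monocytic HGF arrays of 1 day lay low as well, and array level and day cannot be told apart. After normalization the lowest correlation across genes was 0.990 within the 3 day arrays and 0.992 within the 1 day arrays, against 0.945 to 0.949 between days. Negative control probe sets averaged 5.20 to 5.41 on the 3 day arrays and 5.32 to 5.49 on the 1 day arrays. A group whose 3 arrays all lie under that mean has only a bound, and its genes are given as "at least N-fold". The number of arrays limits the precision. Levels of different genes are not set against each other.

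Of 19505 genes, 3152 (16.2%) were higher and 2906 (14.9%) lower after 3 days (limma, Benjamini-Hochberg adjusted p under 0.05), 1661 and 1550 of them by at least 2-fold. The median difference over all genes was 0.02 on the log2 scale, and -0.11 with values under the negative controls set to that level. Without the normalization the split was 7655 higher and 1540 lower, at a median of 0.44. With median centring in its place it was 2205 higher and 4288 lower, at a median of -0.18. In 1304 of the 6058 genes both groups lay under the negative controls. Each count of list members that rose or fell between the days stands beside these shares of 16.2% higher and 14.9% lower. In bulk RNA, fewer cells of a type and less RNA per cell cannot be told apart.

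**Figure D1:**
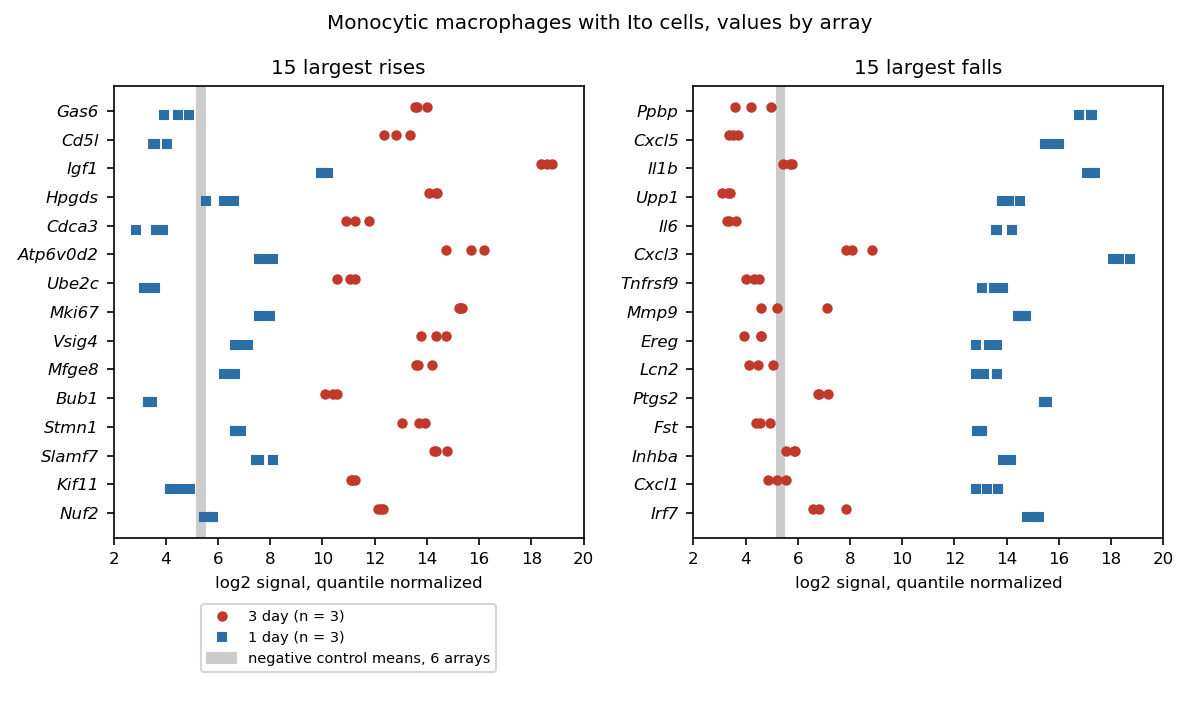
Quantile normalized log2 signal of the 15 genes with the largest rise (left) and the 15 with the largest fall (right), 1 point per array, circles for 3 day cultures above squares for 1 day cultures. The grey band spans the negative control means of the 6 arrays (5.20 to 5.49), and in every gene shown the 3 arrays of one day lie apart from those of the other.

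Genes of acute inflammation were lower after 3 days. Of 24 measured genes of pro-inflammatory cytokines and enzymes, 18 fell and 0 rose, where 14.9% of all genes were lower and 16.2% higher. Their median difference was -2.19 on the log2 scale (also -2.19 with the floor at the negative controls). Il1b, the cytokine interleukin-1 beta, read 5.70, 5.42 and 5.79 in 3 day cultures, against 17.09, 17.37 and 17.30 in 1 day cultures. The later arrays stood just above the negative controls and the earlier ones near the top of the range, a difference of -11.62 ± 0.20 (SE; adjusted p = 8.85e-14), or 3144-fold. Il6, the cytokine that drives the acute phase response in the liver, read 3.27, 3.36 and 3.62 in 3 day cultures and 14.21, 13.63 and 13.59 in 1 day cultures. All 3 later arrays were under the negative controls, so the fall was at least 362-fold (measured means 3.42 and 13.81, adjusted p = 7.55e-13).

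Il1a, the sister cytokine of Il1b, fell by 7.09 on the log2 scale (± 0.23, adjusted p = 3.29e-11). Osm, oncostatin M, read 8.05, 8.52 and 8.06 after 3 days, against 12.70, 12.69 and 13.01 after 1 day, and Csf3, the granulocyte colony-stimulating factor, was at least 13.2-fold lower (measured means 3.53 and 9.03, adjusted p = 1.04e-10). Nos2, the inducible nitric oxide synthase, read under the negative controls after 3 days and fell at least 2.89-fold (means 4.81 and 6.84, adjusted p = 4.35e-05). Tnf, tumour necrosis factor, did not move with them. It read 11.98, 11.58 and 11.67 in 3 day cultures and 11.08, 11.30 and 11.56 in 1 day cultures, a difference of 0.43 ± 0.21 that did not pass (adjusted p = 0.147). Other large falls were those of Tnfrsf9, the receptor 4-1BB, at least 290-fold lower (means 4.29 and 13.49, adjusted p = 4.55e-12), and Upp1, uridine phosphorylase, an enzyme of pyrimidine salvage, at least 457-fold lower (means 3.28 and 14.14, adjusted p = 4.04e-13).

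In the list of neutrophil-attracting chemokines, which also holds the platelet chemokine Pf4, 6 of 7 measured genes fell. The median difference was -8.04 (-7.82 with the floor), the lowest of the 46 lists. Most of these genes lie together in the genome. Cxcl5 read 3.35, 3.69 and 3.53 in 3 day cultures and 16.02, 15.73 and 15.47 in 1 day cultures, a fall of at least 1381-fold (adjusted p = 8.85e-14). Cxcl1 read 5.20, 5.56 and 4.87 after 3 days, against 13.69, 13.24 and 12.82 after 1 day (-8.04 ± 0.26, adjusted p = 2.84e-11). For Cxcl2 the arrays gave 11.61, 11.67 and 10.71 in the later cultures and 18.32, 17.94 and 17.69 in the earlier ones, and for Cxcl3 8.07, 8.86 and 7.84 against 18.70, 18.32 and 18.07. Unlike Cxcl1 and Cxcl5, both kept a signal well over the negative controls. Ppbp and Pf4, chemokines also stored by platelets, were 2 of the 6: Ppbp fell at least 3512-fold (means 4.26 and 17.09, adjusted p = 1.58e-12), and Pf4 by 2.90 on the log2 scale (± 0.20, adjusted p = 6.31e-08). Its 1 day value of 19.78, equal on the 3 arrays after normalization, lay just below the highest deposited value of 19.93.

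Markers of neutrophils moved as well, while the platelet list fell only in chemokines already named. The mean over 11 neutrophil genes ran from 5.32 to 5.50 on the 3 day arrays, against 7.30 to 7.60 on the 1 day arrays, and 8 of the 11 fell, led by Mmp8, the neutrophil collagenase (-5.44 ± 0.19). In 2 of these 8 both groups lay under the negative controls. The median difference of the neutrophil list was -2.21 (-0.65 with the floor). Of its defining genes S100a9 was at least 6.82-fold lower and S100a8 fell by 3.02, while Mpo, myeloperoxidase, stayed near the negative controls at both times (means 5.27 and 5.35). The mean over 7 platelet genes, Ppbp and Pf4 among them, was 6.49 to 6.71 after 3 days and 8.42 to 8.59 after 1 day. Ppbp and Pf4 were the 2 of the 7 that fell, while 2 others rose, and in 1 of the genes called both groups lay under the negative controls. The median difference of the list was -0.03 (-0.11 with the floor). Its defining gene Gp9 was under the negative controls on all 6 arrays, and Itga2b did not pass (means 6.18 and 6.02, adjusted p = 0.801). Outside the list, Selp, P-selectin, a molecule of platelets and endothelium, fell by 5.33 (± 0.30, adjusted p = 8.26e-09). The part of other cells in the chemokine result was not tested.

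The promoters of 3 chemokines and of Il6 are shown because their genes fell together and each holds the letters GGG, any 3 bases, then TTCC, the core of an NF-kappaB site. Each is the 150 bases before the start of the gene in RefSeq's GRCm38.p6 table, 5′ to 3′ on the gene's own strand, with matches on either strand in capitals (overlapping matches run together): Cxcl1 at chr5:90891095-90891244, Cxcl2 at chr5:90903749-90903898, Cxcl3 at chr5:90785951-90786100 and Il6 at chr5:30012964-30013113, all on the plus strand.
Cxcl1: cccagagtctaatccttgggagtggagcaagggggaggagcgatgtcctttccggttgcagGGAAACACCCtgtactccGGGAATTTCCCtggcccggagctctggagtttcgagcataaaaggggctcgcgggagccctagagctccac
Cxcl2: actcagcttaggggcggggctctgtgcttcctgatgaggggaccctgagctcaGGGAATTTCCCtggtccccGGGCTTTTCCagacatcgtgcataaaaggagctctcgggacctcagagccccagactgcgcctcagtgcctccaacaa
Cxcl3: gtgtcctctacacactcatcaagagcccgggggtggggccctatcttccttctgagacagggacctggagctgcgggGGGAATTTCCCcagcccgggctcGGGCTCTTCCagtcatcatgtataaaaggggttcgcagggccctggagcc
Il6: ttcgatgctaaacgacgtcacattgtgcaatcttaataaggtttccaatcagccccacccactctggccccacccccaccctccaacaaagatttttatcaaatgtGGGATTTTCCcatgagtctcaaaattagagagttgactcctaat
Searched over the 250 bases before the start and on both strands, these letters were found in 3 of 6 promoters of the neutrophil-attracting chemokines and in 3 of 16 of the pro-inflammatory list that have an entry in the table, against 4.56% of the promoters of 15691 genes tested. A match is a description of these letters only.

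The CC chemokines, which draw monocytes and lymphocytes, fell in 11 of 13 measured genes (median -2.42, -2.36 with the floor). Among them were Ccl22 (-5.65 ± 0.25), Ccl17 (-5.08 ± 0.20) and Ccl24, at least 10.7-fold lower (means 3.75 and 8.73, adjusted p = 2.93e-09). The monocyte chemokine Ccl2 fell less and stayed high, with 16.31, 16.59 and 16.23 in 3 day cultures against 18.80, 18.74 and 18.84 in 1 day cultures (-2.42 ± 0.20, adjusted p = 3.87e-07). Ccl7 read 14.62, 15.30 and 14.89 after 3 days and 17.59, 17.60 and 17.59 after 1 day. The 1 member that rose was Ccl8, named after its values were seen, at least 2.82-fold (means 6.91 and 4.88, adjusted p = 3.03e-06). Of the chemokine receptors, Cxcr4 rose (3.18 ± 0.22, adjusted p = 7.5e-08), and Cx3cr1, the fractalkine receptor of resident macrophages, rose at least 2.83-fold (means 6.92 and 3.74). Ccr1 (-2.84 ± 0.23) and Ccr7, which guides cells to lymph nodes (-3.24 ± 0.31), fell. Ccr2, the receptor for Ccl2, read 8.54, 7.72 and 8.45 after 3 days and 7.31, 7.43 and 7.08 after 1 day, a rise of 0.97 ± 0.24 (adjusted p = 0.00748) that did not pass in a fit of all 48 arrays (adjusted p = 0.113).

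Interferon-stimulated genes, which make up the antiviral response, fell in 23 of 26 measured members and rose in 0, with a median difference of -2.35 (-2.14 with the floor). Irf7, the factor that amplifies interferon production, moved most, with 6.81, 7.84 and 6.59 in 3 day cultures against 14.79, 15.10 and 15.23 in 1 day cultures (-7.97 ± 0.29, adjusted p = 9.64e-11, 250-fold). Oasl2, a member of the oligoadenylate synthetase family, read 10.51, 10.49 and 9.56 after 3 days and 14.24, 14.33 and 14.11 after 1 day. The RNA sensors Zbp1 (-3.70 ± 0.21) and Ddx58, which codes for RIG-I (-3.49 ± 0.21), and Usp18, the brake on interferon receptor signalling (-3.23 ± 0.21), fell by similar amounts, and the groups of each were apart. Ifit1, an RNA-binding antiviral protein shown for its promoter, read 4.56, 5.44 and 4.47 in 3 day cultures and 8.70, 8.65 and 7.99 in 1 day cultures (-3.62 ± 0.28, adjusted p = 2.18e-07). Its last 150 bases before the start hold the letters TTTC, any 2 bases, then TTTC, the core of an interferon-stimulated response element, at chr19:34640739-34640888 on the plus strand (capitals).
Ifit1: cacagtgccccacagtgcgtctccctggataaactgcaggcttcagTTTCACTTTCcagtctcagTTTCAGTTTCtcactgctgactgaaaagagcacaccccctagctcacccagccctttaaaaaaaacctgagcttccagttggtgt
These letters stood on either strand in 10 of the 20 interferon-stimulated promoters in the table, against 3.03% of all.

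Genes that go with type 2 activation, the state that interleukin-4 induces in macrophages, fell too: 13 of 22 measured were lower and 3 higher (median -2.25, -1.61 with the floor). Arg1, arginase, stayed abundant and read 16.47, 16.70 and 16.68 in 3 day cultures against 19.25, 19.09 and 19.11 in 1 day cultures (-2.54 ± 0.19, adjusted p = 1.93e-07). Retnla, a secreted marker of this state, was at least 6.87-fold lower and Pdcd1lg2, the checkpoint ligand PD-L2, at least 11.4-fold lower (means 3.72 and 8.09 for Retnla, 3.39 and 8.82 for Pdcd1lg2; adjusted p = 1.51e-08 and 9.64e-11). Socs2, a suppressor of cytokine signalling, fell by 5.83 (± 0.25). Mrc1, the mannose receptor, read 14.84, 15.67 and 15.38 after 3 days and 16.16, 14.99 and 14.94 after 1 day, and these groups overlapped (adjusted p = 0.9).

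Growth factor genes fell more often than they rose. Of 22 measured growth factors and receptors, 4 were higher and 11 lower, where 16.2% of all genes were higher and 14.9% lower. The part that was higher was thus near the share over all genes. Igf1, insulin-like growth factor 1, had the largest rise among genes over the negative controls at both times: 18.80, 18.37 and 18.60 in 3 day cultures, against 9.96, 10.04 and 10.21 in 1 day cultures (8.52 ± 0.20, adjusted p = 2e-12), or 367-fold. Ereg, epiregulin, a ligand of the epidermal growth factor receptor, was under the negative controls after 3 days and fell at least 249-fold (means 4.38 and 13.27, adjusted p = 1.23e-11). Csf1, the gene of MCSF itself, read 7.30, 8.37 and 7.54 after 3 days and 10.19, 10.98 and 10.76 after 1 day, while its receptor Csf1r rose to 16.52, 16.33 and 16.54, against 15.43, 15.40 and 15.39 after 1 day (1.06 ± 0.19, adjusted p = 0.000773). With median centring the rise of Csf1r did not pass (adjusted p = 0.228). Met, the HGF receptor, fell by 1.98 (± 0.21). For Hgf (adjusted p = 0.24), Vegfa (0.182) and Pdgfb (0.105) no difference passed.

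Members of the TGF-beta family, which governs matrix formation by Ito cells, were lower in 11 of 24 measured genes and higher in 3. Of all genes 14.9% were lower and 16.2% higher. Inhba, the subunit of activin A, averaged 5.76 ± 0.18 in 3 day cultures, against 14.01 ± 0.15 in 1 day cultures (SD, n = 3 each; -8.24 ± 0.20, adjusted p = 2.58e-12, 303-fold). Its inhibitor Fst, follistatin, read 4.93, 4.55 and 4.42 after 3 days and 13.05, 12.98 and 12.87 after 1 day, at least 202-fold lower. Ligand and inhibitor thus stood at or near the negative controls together after 3 days. Tgfb1, the ligand TGF-beta 1, fell by 1.48 (± 0.20, adjusted p = 6.02e-05) and its receptor Tgfbr1 rose by 1.88 (± 0.25, adjusted p = 5.56e-05). Id1, a target of BMP signals, fell by 4.47 (± 0.27). Among matrix genes 6 of 24 rose and 8 fell, and without the normalization 10 and 9. The proteases Mmp9, Mmp13 and Mmp14 fell by 8.92 (± 0.45), 5.73 (± 0.49) and 3.75 (± 0.33), and Thbs1, thrombospondin 1, which activates latent TGF-beta, read 11.28, 12.70 and 12.29 in 3 day cultures against 19.11, 19.01 and 19.07 in 1 day cultures. For all 3 proteases the second 3 day array was the highest of its group, at 7.11 against 4.60 and 5.21 for Mmp9.

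All 31 measured cell cycle genes rose (background 16.2%), with differences of 1.28 to 7.63 and a median of 4.61 (4.15 with the floor). Mki67, the proliferation antigen Ki-67, read 15.29, 15.22 and 15.36 in 3 day cultures, against 7.69, 7.99 and 7.58 in 1 day cultures (7.53 ± 0.20, adjusted p = 5.49e-12, 185-fold). The mitotic genes Bub1, a kinase of the spindle checkpoint, Ube2c, which marks cyclins for destruction, and Kif11, a spindle motor, were under the negative controls on every 1 day array. They were at least 30.5-fold (means 10.35 and 3.39), 46.4-fold (10.96 and 3.33) and 53.2-fold (11.15 and 4.54) higher after 3 days. Plk1, a mitotic kinase, read 12.07, 11.99 and 12.20 after 3 days and 5.79, 5.47 and 5.63 after 1 day, and Ccnb2, cyclin B2, read 11.77, 11.76 and 11.95 after 3 days, against 6.18, 5.90 and 5.94 after 1 day. Outside the list, Cdca3 (at least 59.2-fold, means 11.31 and 3.47), Nuf2 of the kinetochore (6.59 ± 0.20) and Stmn1, a microtubule regulator (6.82 ± 0.24), were among the 15 largest rises. Promoters of 3 of these genes follow, with matches on either strand to the CCAAT box (in all 3) and to the CHR letters TTTGAA (in Ube2c and Kif11, and not in this window of Ccnb2) in capitals: Ube2c at chr2:164769779-164769928 (plus strand), Kif11 at chr19:37376232-37376381 (plus) and Ccnb2 at chr9:70421555-70421704 (minus).
Ube2c: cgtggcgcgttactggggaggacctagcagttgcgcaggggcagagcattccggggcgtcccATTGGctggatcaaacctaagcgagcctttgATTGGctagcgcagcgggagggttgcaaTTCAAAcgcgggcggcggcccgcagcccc
Kif11: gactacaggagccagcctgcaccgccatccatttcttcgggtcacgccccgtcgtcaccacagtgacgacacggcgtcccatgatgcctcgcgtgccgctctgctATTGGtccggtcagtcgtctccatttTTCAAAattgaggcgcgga
Ccnb2: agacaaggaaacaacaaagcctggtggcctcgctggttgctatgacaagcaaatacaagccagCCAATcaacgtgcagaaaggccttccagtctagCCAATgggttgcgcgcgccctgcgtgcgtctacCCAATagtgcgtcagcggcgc
CCAAT stood in 18 of 26 cell cycle promoters in the table, against 36% of all, and TTTGAA in 8 of 26, against 14.2% of all.

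**Figure D2:**
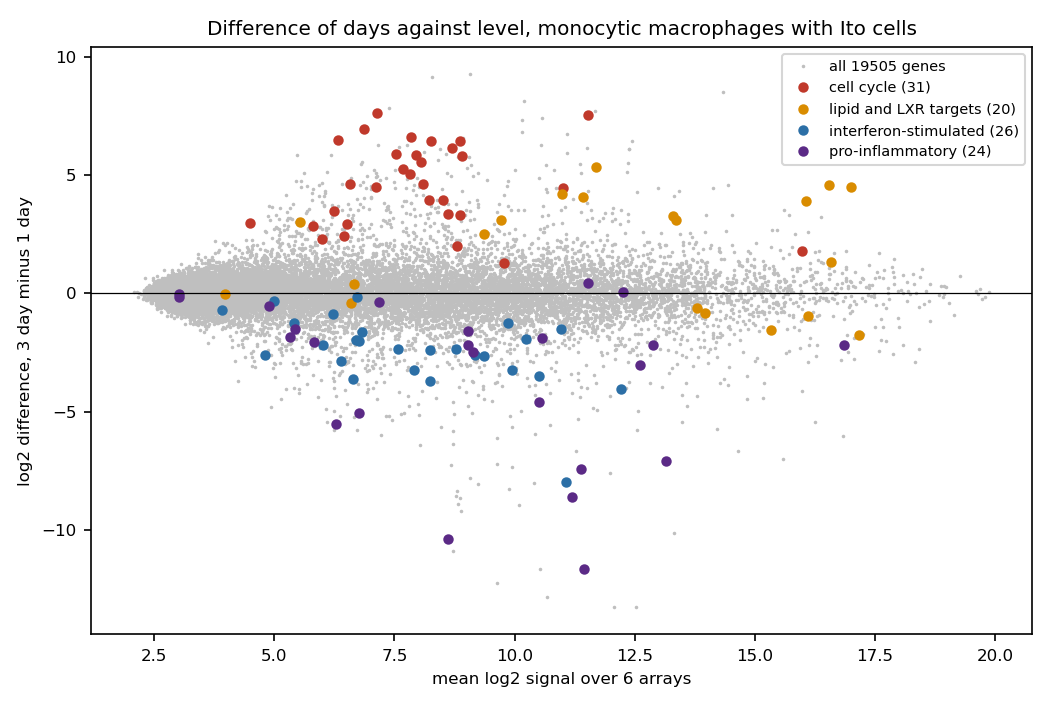
Log2 difference, 3 day minus 1 day, against the mean log2 signal over the 6 arrays, 1 point per gene, with 4 lists coloured. All 31 cell cycle genes lie above 0, while the 23 interferon-stimulated and 18 pro-inflammatory genes that passed lie below it.

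Genes of lipid handling, some of them targets of the sterol sensor LXR, rose in 12 of 20 measured members and fell in 5 (median 2.77, 2.07 with the floor). Apoe, the lipid carrier apolipoprotein E, read 18.86, 18.83 and 18.83 in 3 day cultures and 14.24, 14.11 and 14.43 in 1 day cultures (4.58 ± 0.20, adjusted p = 4.44e-10). Gpnmb, a glycoprotein of lipid-laden macrophages, read 19.33, 19.16 and 19.22 after 3 days, against 14.77, 14.65 and 14.81 after 1 day. Trem2, the lipid receptor on macrophages, rose by 3.29 (± 0.21), Fabp4, a fatty acid carrier, by 4.08 (± 0.20), and Lipa, the acid lipase of lysosomes, by 3.90 (± 0.19). The nuclear receptor Pparg rose at least 3.08-fold (means 7.04 and 4.03, adjusted p = 2.7e-06). Nr1h3, which codes for LXR alpha, did not pass (means 6.86 and 6.46, adjusted p = 0.194). Enzymes of cholesterol synthesis were lower in 11 of 16 and higher in 1. Fdft1, which makes squalene, fell by 2.24 (± 0.21), Sqle, which oxidises it, by 2.29 (± 0.23), and Srebf2, the factor that drives the pathway, by 1.79 (± 0.25), while Dhcr7, the last step, rose by 3.34 (± 0.37). Without the normalization 7 of the 16 were lower and 4 higher.

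Genes for clearance of dying cells rose in 14 of 20 measured members and fell in 1 (median 1.31, 1.25 with the floor). Gas6, the bridge from dying cells to the receptors Mertk and Axl, was among the largest rises: it read 13.63, 13.99 and 13.55 in 3 day cultures, against 3.94, 4.90 and 4.48, all under the negative controls, in 1 day cultures. That is at least 316-fold (adjusted p = 5.8e-12). Mfge8, another bridging protein, read 13.65, 14.18 and 13.60 after 3 days and 6.23, 6.55 and 6.66 after 1 day (7.33 ± 0.23, adjusted p = 1.96e-11). Mertk itself rose by 1.11 (± 0.22, adjusted p = 0.00156), and C1qc, a chain of complement C1q, which also tags dying cells, by 2.69 (± 0.21). The member that fell was Thbs1. Lysosomal genes rose in 15 of 22 and fell in 1. Atp6v0d2, a proton pump subunit of macrophages and osteoclasts, read 15.69, 16.19 and 14.75 after 3 days and 8.11, 7.58 and 7.76 after 1 day (7.73 ± 0.31, adjusted p = 2.25e-10, 212-fold). The bone protease Ctsk rose by 3.45 (± 0.23), and Ctsl, cathepsin L, was the 1 that fell (-1.97 ± 0.20). With median centring 8 lysosomal genes were higher and 2 lower.

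Enzymes of prostaglandin metabolism changed in opposite directions. Ptgs2, the inducible cyclooxygenase, read 7.15, 6.78 and 6.80 in 3 day cultures, against 15.51, 15.56 and 15.43 in 1 day cultures (-8.59 ± 0.20, adjusted p = 1.58e-12, 386-fold). Ptges, which makes prostaglandin E2 from its product, read 7.71, 7.82 and 7.47 after 3 days and 14.97, 15.07 and 15.22 after 1 day. Hpgds, which makes prostaglandin D2, was higher, with 14.33, 14.38 and 14.09 after 3 days against 6.60, 5.54 and 6.23 after 1 day (8.14 ± 0.26, adjusted p = 2.72e-11). Hpgd, which breaks prostaglandins down, rose at least 29.4-fold (means 10.30 and 4.03, adjusted p = 2.8e-09). Alox5, the first enzyme of the leukotrienes, fell by 2.49 (± 0.21), so that of 16 genes of the list 4 rose and 6 fell.

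Energy metabolism differed between the days. Of 23 genes of the mitochondrial respiratory chain and its supply, 14 were higher and 1 lower (median 1.14), among them Atp5a1 of the ATP synthase (1.65 ± 0.19), Cox5a of complex IV (1.58 ± 0.21) and Cs, citrate synthase (1.30 ± 0.22). Of 23 genes of glycolysis and the hypoxia response, 12 were lower and 1 higher (median -0.58). Slc16a3, the lactate exporter, fell by 3.12 (± 0.20), Slc2a1, the glucose carrier, by 2.16 (± 0.24), Hk2, hexokinase 2, by 2.05 (± 0.25), and the factor Hif1a by 2.43 (± 0.25). Targets of the oxidative stress factor NRF2 and glutathione enzymes rose in 10 of 20 and fell in 5. With median centring 6 were higher and 7 lower. Gpx3, a secreted glutathione peroxidase, rose at least 17.5-fold (means 9.55 and 4.08, adjusted p = 1.1e-10) and Cat, catalase, by 2.58 (± 0.21). Slc7a11, the cystine importer, fell by 3.49 (± 0.27), and Sod2, the mitochondrial superoxide dismutase that NF-kappaB also induces, by 3.85 (± 0.27).

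Genes for showing antigen to T cells were lower in 7 of 12 and higher in 1 (median -2.09, -2.08 with the floor). The co-stimulators Cd80 and Cd86 fell by 3.80 (± 0.21) and 3.28 (± 0.23), and the checkpoint ligand Cd274, or PD-L1, by 3.96 (± 0.28). H2-Ab1, a class II chain, read 8.29, 8.34 and 8.01 in 3 day cultures, against 10.25, 10.88 and 11.28 in 1 day cultures. The 1 that rose was Cd40, another co-stimulator, named after its values were seen (1.45 ± 0.24, adjusted p = 0.000424). Toll-like and C-type lectin receptors were lower in 12 of 20 and higher in 2. Tlr2, which senses bacterial lipoproteins, fell by 3.11 (± 0.22) and Tlr4, which senses lipopolysaccharide, by 2.12 (± 0.21), whereas Clec12a, an inhibitory lectin that binds uric acid crystals, rose by 1.91 (± 0.25).

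**Figure D3:**
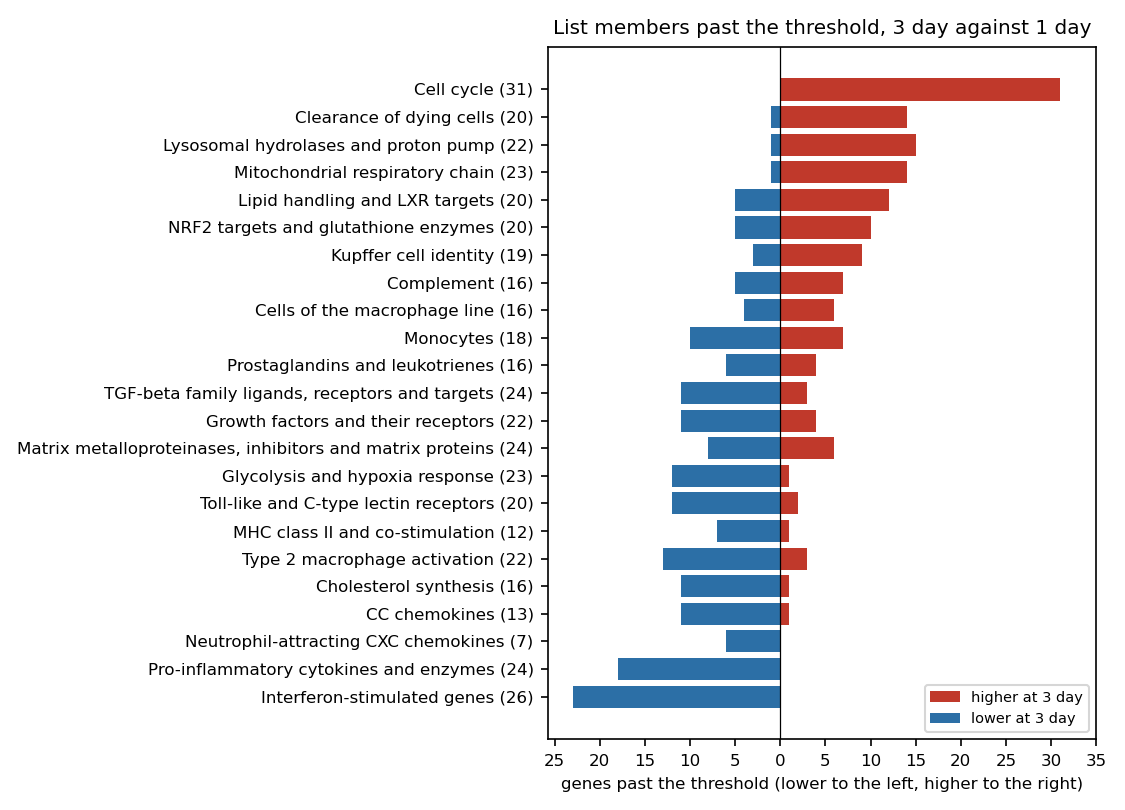
Number of members past the threshold in 23 gene lists, bars to the right for genes higher and to the left for genes lower after 3 days, with the number measured in parentheses. Cell cycle genes are all on the right (31 of 31), and interferon-stimulated genes (23 of 26) and pro-inflammatory genes (18 of 24) only on the left.

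Genes of the macrophage line were high on average at both times. The mean over 16 of them was 14.48 to 14.75 on the 3 day arrays and 14.60 to 14.69 on the 1 day arrays. Of these genes 6 rose and 4 fell, and with median centring 2 and 9. Csf1r, Mertk and Cx3cr1 were among those that rose, and Cx3cr1 lay under the negative controls on all 1 day arrays. Among those that fell were Maf (-2.47 ± 0.34), the integrin Itgam (-2.00 ± 0.21) and the Fc receptor Fcgr1 (-1.73 ± 0.24). Adgre1, which codes for F4/80, read 15.59, 15.17 and 15.03 after 3 days and 15.70, 15.69 and 15.69 after 1 day, and did not pass (adjusted p = 0.139). It was lower without the normalization (-0.54, adjusted p = 0.0465) and with median centring (-1.15, adjusted p = 0.000608). Of the defining genes of blood monocytes, Ly6c2 fell by 4.40 (± 0.28, adjusted p = 2.75e-08) and Ccr2 rose. Of all 18 measured monocyte genes 10 fell and 7 rose, 3 of those called with both groups under the negative controls. Lyz1 (4.59 ± 0.23) and Itga4 (3.62 ± 0.21) were among those that rose. Ly6c2 has a near-identical neighbour that its probes may also read. Vcan, versican, a matrix proteoglycan of classical monocytes, fell by 7.78 (± 0.23, adjusted p = 1.32e-11), to 4.95, 5.13 and 5.46 against 13.06, 13.21 and 12.61 after 1 day.

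Markers of Kupffer cells, which are the liver's own macrophages, rose in 9 of 19 measured members and fell in 3 (median 0.40, also with the floor). In 2 of those called both groups lay under the negative controls. The list's median change was 0.85 in MCSF alone, 0.17 with CD146 cells and 0.29 in Kupffer cells with Ito cells. Id1, also on this list, fell by 4.47. Vsig4, a complement receptor, read 14.34, 13.78 and 14.74 in 3 day cultures, against 6.82, 6.65 and 7.16 in 1 day cultures (7.41 ± 0.26, adjusted p = 5.85e-11, 170-fold). Cd5l, a secreted scavenger protein, read 12.80, 13.35 and 12.36 after 3 days and lay under the negative controls after 1 day at 4.04, 3.60 and 3.50, a rise of at least 171-fold (adjusted p = 1.02e-11). Folr2, the folate receptor of resident macrophages, rose by 5.07 (± 0.22). Timd4, a receptor for dying cells, rose at least 1.55-fold (means 6.05 and 4.22, adjusted p = 1.12e-05), and Marco, a scavenger receptor, by 1.20 (± 0.34, adjusted p = 0.0156), a call that ended in a fit of all 48 arrays (adjusted p = 0.232). Clec4f, the defining lectin of mouse Kupffer cells, stayed under the negative controls on all 6 arrays (means 3.26 and 3.11), as did Id3, a factor they depend on.

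Defining genes of Ito cells were at background. Of 7 such genes 6, namely Lrat, Des, Pdgfrb, Reln, Col1a1 and Col3a1, lay under the negative controls on all 6 arrays. The seventh, Dcn, the matrix proteoglycan decorin, read 5.71, 5.82 and 5.89 in 3 day cultures and 7.30, 7.22 and 7.09 in 1 day cultures (-1.40 ± 0.19, adjusted p = 7.42e-05). The mean over 22 Ito cell genes was 4.46 to 4.53 after 3 days and 4.39 to 4.47 after 1 day. Of them 3 rose and 5 fell, where 16.2% of all genes rose and 14.9% fell. In 5 of these 8 both groups lay under the negative controls. Without the normalization 13 were higher and 2 lower. Acta2, the smooth muscle actin of activated Ito cells, read 7.19, 7.76 and 7.01 after 3 days and 6.56, 6.52 and 6.41 after 1 day (0.82 ± 0.23, adjusted p = 0.0133), which did not pass in a fit of all 48 arrays (adjusted p = 0.0716). Defining genes of cholangiocytes were under the negative controls at both times, and so were 4 of 5 of hepatocytes and 3 of 5 of sinusoidal endothelial cells. Of B cell genes 6 of 7 fell, 3 of them under the negative controls at both times; their mean was 4.79 to 4.90 after 3 days and 6.43 to 6.52 after 1 day, with Cd79a, a chain of the B cell receptor, at least 6.85-fold lower (means 4.62 and 8.08). The dendritic cell list, which holds Ccl17, Ccl22 and Ccr7, averaged 4.34 to 4.56 after 3 days and 5.79 to 5.91 after 1 day, with 5 of 12 lower and 1 higher, and 3 of its 4 defining genes were under the negative controls at both times. Ccl17, Ccl22 and Ccr7 were among the 5 that fell, so this mean is not separate from the chemokine genes. The median difference of the dendritic cell list was -0.52 (-0.11 with the floor). What part B cells and dendritic cells had in the falls of class II and chemokine genes was not tested.

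The time change was then set against that of 3 other cultures, each in a fit of 12 arrays in which the difference of the 2 time changes was tested. The 3 tests share the 6 Ito arrays. A positive difference means a higher 3 day over 1 day change in monocytic macrophages with Ito cells. Where a group lay under the negative controls, the fitted difference rests on values with only a bound, and the difference with those controls as floor is given beside it. Against MCSF alone, which holds time in culture, 982 genes (5.03%) had a higher and 1270 (6.51%) a lower change, and without further normalization 2124 and 759. One control array, replicate 3 of 3 days, stood apart from its group. Without it the counts were 1858 and 1937. The total of 2252 was 1437 without Ito 1 day replicate 2, 1454 without Ito 1 day replicate 3 and 1346 without MCSF 3 day replicate 2. In 316 of the genes called, all 4 groups lay under the negative controls.

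Arg1 and chemokines of the monocyte receptor Ccr2 were lower after 3 days in both cultures, and by less with Ito cells. Arg1 read 16.44, 16.67 and 16.65 with Ito cells after 3 days and 19.28, 19.14 and 19.16 after 1 day, against 8.52, 8.92 and 9.52 in MCSF after 3 days and 19.00, 19.06 and 19.03 after 1 day (difference of changes 7.44 ± 0.32, adjusted p = 8.09e-09). In the 1 day cultures the 2 groups thus differed little, and after 3 days they lay far apart. Both 1 day groups lay near the highest deposited value of 19.93, which limits how far they could differ upward. Ccl2 read 16.27, 16.56 and 16.19 with Ito cells after 3 days, against 6.99, 6.90 and 12.12 in MCSF, where the third array is the one that stands apart (7.06 ± 1.29, adjusted p = 0.00366). Its relatives Ccl7 (7.21 ± 1.45) and Ccl12 (7.81 ± 1.22) did likewise. Ch25h, the enzyme that makes 25-hydroxycholesterol, had the largest positive difference of the named genes, 8.54 ± 1.15 (adjusted p = 0.000393): it read 13.70, 13.50 and 13.45 with Ito cells after 3 days and 4.77, 5.14 and 9.51 in MCSF.

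Activin and its inhibitor went the other way, with their highest values beside Ito cells after 1 day. Inhba read 14.19, 14.03 and 13.89 with Ito cells after 1 day, against 8.62, 9.16 and 8.38 in MCSF, and after 3 days both cultures were near 6 or below (-5.16 ± 0.33, adjusted p = 5.77e-07). Fst gave the same order (-5.62 ± 0.34, adjusted p = 3.99e-07, and -6.32 with the floor). Sparc, the matrix protein osteonectin, read 5.75, 6.78 and 5.60 with Ito cells after 3 days, against 14.78, 15.02 and 12.78 in MCSF after 3 days, with all 1 day arrays below 6 (-9.09 ± 0.67, adjusted p = 2.4e-06, and -8.02 with the floor). Bgn, the matrix proteoglycan biglycan, differed by -6.07 (± 0.66, adjusted p = 0.0001, and -6.16 with the floor). Of 22 Ito cell genes 8 had a lower and 0 a higher change with Ito cells than in MCSF, against 6.51% and 5.03% of all genes. The list's median difference was -0.68, but -0.03 with the floor, the same as the floored median over all genes. Itgal, the alpha chain of the leukocyte integrin LFA-1, differed by -6.38 (± 0.34, adjusted p = 9.66e-08).

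Cell cycle genes had a higher change with Ito cells in 11 of 31 members and a lower one in 0, without control replicate 3 in 31, without replicate 1 in 5 and without replicate 2 in 4. Mki67 read 10.54, 10.63 and 15.58 in MCSF after 3 days, the last being that array, and 9.81, 9.84 and 9.72 after 1 day (4.94 ± 1.25, adjusted p = 0.0205). Bub1 gave 5.22 ± 1.58 (adjusted p = 0.0446, and 3.49 with the floor). With a trended, robust variance neither passed (adjusted p = 0.095 for Mki67 and 0.152 for Bub1). Interferon-stimulated genes had a lower change in 9 of 26 and a higher one in 0 with all control arrays, and in 8 and 3 without replicate 3. The inflammatory lists had negative medians in both cultures. That of cytokines and enzymes was -2.19 with Ito cells (6 arrays normalized together) and -2.96 in MCSF (12 arrays). That of the neutrophil-attracting chemokines was -8.04 with Ito cells and -10.73 in MCSF. Gene by gene, the median difference of changes was -0.07 for cytokines and enzymes (-0.05 with the floor), with 6 of 24 members higher and 5 lower. For the chemokines it was 0.94 (0.30 with the floor), with 2 of 7 higher and 0 lower. Of all genes 5.03% were higher and 6.51% lower.

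**Figure D4:**
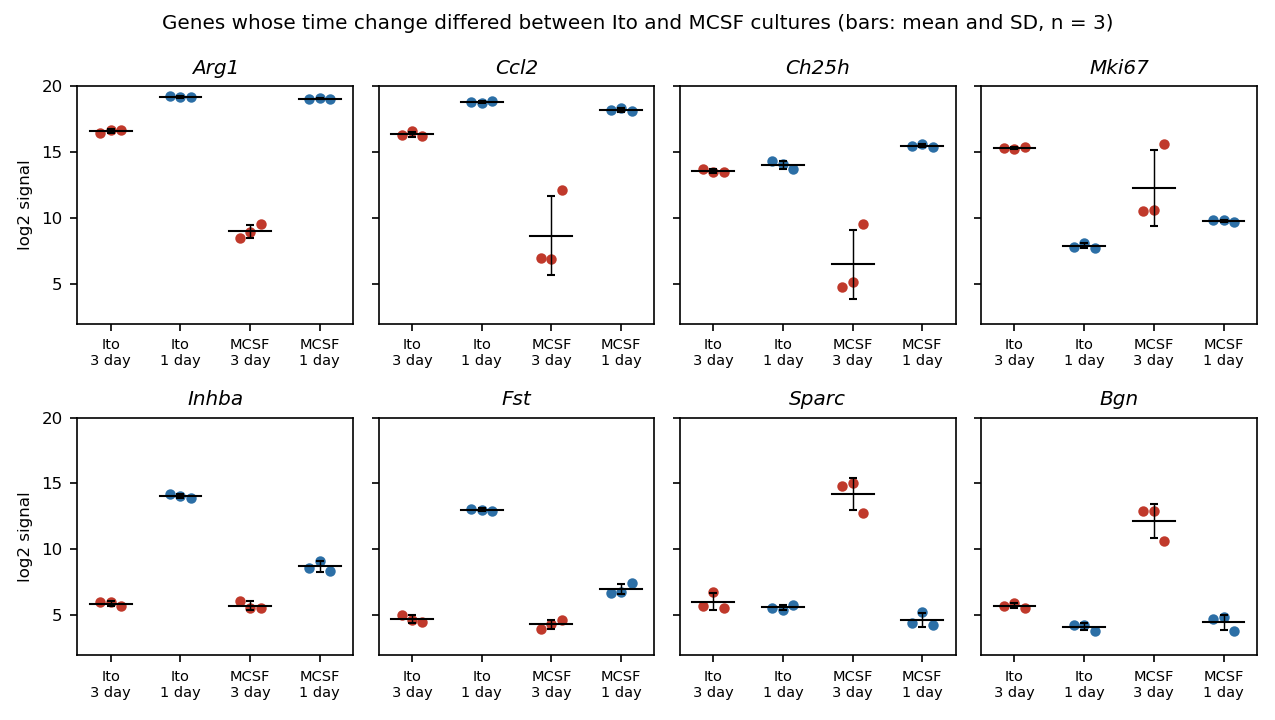
Log2 signal by array of 8 genes in monocytic macrophages with Ito cells and in MCSF alone, 3 day (red) left of 1 day (blue), with the mean as a line and the SD as bars (n = 3), normalized over 12 arrays. Arg1 and Ccl2 stay above 16 with Ito cells after 3 days, Inhba and Fst are high with Ito cells after 1 day alone, and Sparc and Bgn are high in MCSF after 3 days alone.

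Against CD146 cells the difference was wider, with 2072 genes (10.6%) higher and 2120 (10.9%) lower, and 3135 and 1301 without further normalization. In a fit of all 48 arrays 1354 were higher and 1326 lower. All 31 cell cycle genes had a higher change with Ito cells. Bub1, for example, read 10.50, 10.17 and 10.62 with Ito cells after 3 days and 3.48, 3.41 and 3.57 after 1 day, against 4.37, 4.57 and 4.82 with CD146 cells after 3 days and 4.68, 4.79 and 5.21 after 1 day (fitted difference 7.25 ± 0.28, adjusted p = 1.92e-12, and 4.95 with the floor, since only the 3 day Ito group lay over the negative controls). Interferon-stimulated genes had a lower change in 24 of 26, with a median change of -2.35 with Ito cells and 0.76 with CD146 cells. Igf1 was high in both after 3 days, at 18.81, 18.38 and 18.59 with Ito cells and 18.81, 18.47 and 18.50 with CD146 cells. It was low after 1 day with Ito cells alone (10.05, 10.13 and 10.29, against 17.59, 17.15 and 17.56), so the changes differed by 7.28 ± 0.27 (adjusted p = 1.35e-12). Il6 was the reverse: 14.23, 13.65 and 13.61 after 1 day with Ito cells, against 5.99, 6.24 and 6.11 with CD146 cells, and low in both after 3 days (-7.78 ± 0.33, adjusted p = 3.95e-12, and -8.06 with the floor). Selp, P-selectin, an adhesion molecule of platelets and endothelium, read 4.67, 5.63 and 4.50 with Ito cells after 3 days and 9.79, 10.14 and 10.73 after 1 day, and with CD146 cells 9.29, 8.31 and 9.25 after 3 days and 5.37, 4.45 and 4.99 after 1 day (-9.30 ± 0.46, and -7.76 with the floor). Arg2, the second arginase, moved in opposite directions too (-8.20 ± 0.25, and -7.64 with the floor).

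Against Kupffer cells kept with Ito cells the fewest genes differed, with 679 genes (3.48%) whose change was higher in the monocytic cells and 512 (2.62%) lower. Atp6v0d2 rose in the monocytic cells, while in Kupffer cells it read 9.44, 10.16 and 9.52 after 3 days and 12.77, 12.64 and 12.83 after 1 day, a difference of 10.76 ± 0.40 (adjusted p = 2.16e-12). Vsig4 differed by 7.01 (± 0.35): in Kupffer cells it read 6.09, 6.54 and 6.75 after 3 days and 6.36, 6.03 and 5.85 after 1 day. The Kupffer cell arrays of the 2 days overlapped for this Kupffer cell marker. Apoe (5.89 ± 0.26) and C1qa (5.93 ± 0.25) rose in monocytic macrophages, though the rise of C1qa did not pass in a fit of all 48 arrays (adjusted p = 0.104). In Kupffer cells C1qa read 9.22, 9.24 and 8.97 after 3 days, against 13.79, 13.74 and 13.80 after 1 day. On the other side, Ppbp averaged 4.28 ± 0.69 in the monocytic cells after 3 days (SD, n = 3), against 14.23, 13.29 and 13.69 in Kupffer cells (-9.52 ± 0.42, and -8.48 with the floor). Mpo, in granules of immature granulocytes, read 16.04, 15.11 and 16.04 in Kupffer cells after 3 days and 6.98, 7.82 and 6.59 after 1 day, and stayed near the negative controls in the monocytic cells (-8.67 ± 0.41, and -8.56 with the floor). Interferon-stimulated genes had a lower change in the monocytic cells in 18 of 26, with Irf7 at -6.15 (± 0.38). Cell cycle genes had a higher change in 13 of 31, and the list's median change was 4.61 in the monocytic and 3.54 in the Kupffer cells. In a fit of all 48 arrays 275 genes were higher and 205 lower.

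**Figure D5:**
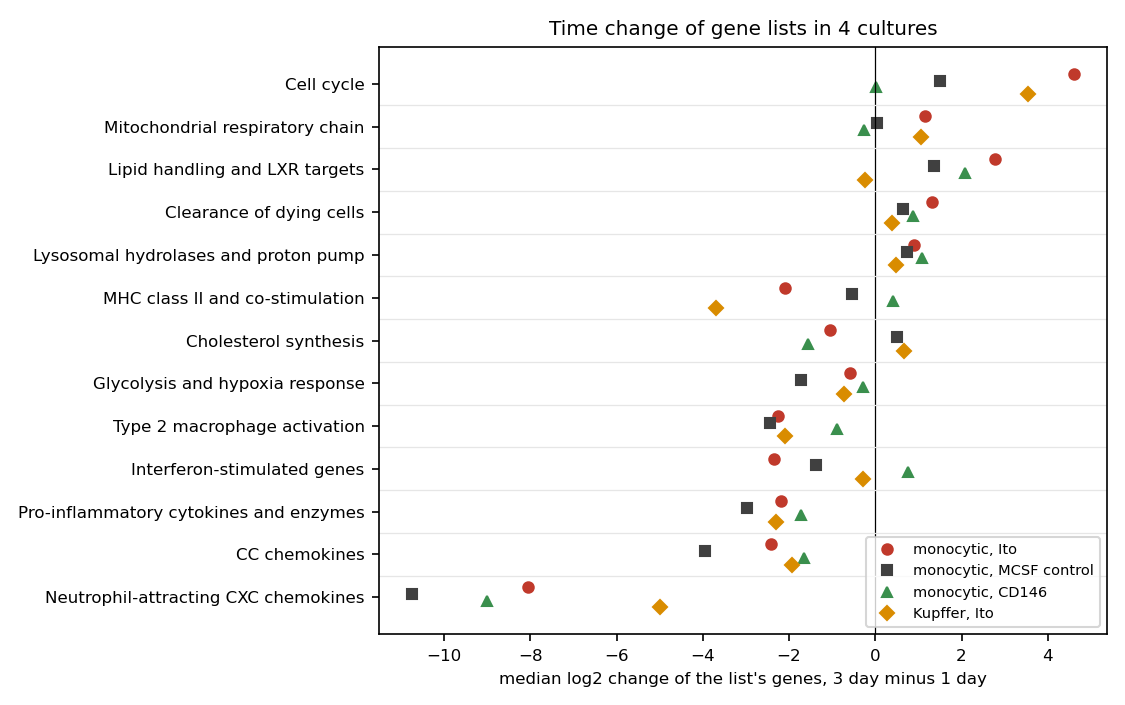
Median log2 change, 3 day minus 1 day, of the genes of 13 lists in monocytic macrophages with Ito cells (6 arrays normalized together) and in 3 other cultures (each normalized with the Ito arrays). Neutrophil-attracting chemokines have a negative median in all 4 cultures, and the cell cycle median is 4.61 with Ito cells against 1.50 in MCSF and 0.01 with CD146 cells.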

How the data were processed

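RNA of 48 cultures was measured on Affymetrix arrays, and the deposited values are log2 signals of probe sets, made by RMA in the Transcriptome Analysis Console per the submitters' processing notes. Genome build and versions are not given in the sources used here. Of 28846 probe sets, 6640 controls and 2634 without a symbol were left out. For 55 genes with several probe sets the one with the highest mean was used, which left 19505 genes, all matched by gene ID to RefSeq (GRCm38.p6), the source of promoter sequences for 15691 of them.

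The 6 arrays (12 for a difference of time changes) were quantile normalized over all probe sets. Each gene was fitted with limma 3.58.1 (lmFit, eBayes) in R 4.3.3, two-sided, with Benjamini-Hochberg adjustment over all genes and a threshold of 0.05. Differences are 3 day minus 1 day, with SE. Tables were read with data.table, version 1.17.8. Motifs and figures were made in Python 3.11.15 with matplotlib 3.10.9. A group under the mean of the 5222 negative control probe sets on all 3 arrays has a bound only. The number of arrays limits the precision. The fit was tested on simulated data.

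The members and gene lists were chosen with earlier results of these data known. Genes were named by rule: the 15 largest rises and 15 largest falls past the threshold with groups apart and the higher mean over the negative controls, up to 6 members with the smallest adjusted p of each list, a list of genes of interest, and the 8 largest differences of each sign against each other culture, leaving out unnamed gene models and near-identical families. Of the genes printed, 5 fall outside it (Axl, Ccl8, Cd40, Ifit1 and Reln) and were chosen after their values were seen. Alternatives were no normalization, median centring, normalization or a fit over all 48 arrays, no dim genes, a trended variance, array weights, a replicate block, all probe sets, a 2-fold minimum, each array left out, and, added after seeing the data, values floored at the negative controls.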

Additional observations from a re-analysis of the deposited data

Results flagged for a closer look

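The log2 change between 3 days and 1 day differed between cultures in 34 tests of named genes, each a test of the difference itself in limma, adjusted over all genes. Against MCSF alone, the differences above 0 (change with Ito cells minus the other change) were 8.54 for Ch25h, 7.81 for Ccl12, 7.44 for Arg1, 7.21 for Ccl7, 7.06 for Ccl2, 5.22 for Bub1 and 4.94 for Mki67. Against MCSF alone, the differences below 0 were -9.09 for Sparc, -6.38 for Itgal, -6.07 for Bgn, -5.62 for Fst, -5.16 for Inhba and -4.95 for Id3. Against CD146 cells, the differences above 0 were 7.28 for Igf1, 7.25 for Bub1, 7.18 for Cdca3 and 7.07 for Ube2c. Against CD146 cells, the differences below 0 were -9.30 for Selp, -8.20 for Arg2, -7.92 for Fst, -7.81 for Inhba, -7.78 for Il6 and -6.76 for Mmp13. Against Kupffer cells, the differences above 0 were 10.76 for Atp6v0d2, 7.01 for Vsig4, 6.84 for Ch25h, 6.66 for Mfge8, 5.93 for C1qa and 5.89 for Apoe. Against Kupffer cells, the differences below 0 were -9.52 for Ppbp, -8.67 for Mpo, -6.48 for Cxcl5, -6.15 for Irf7 and -5.69 for Id1. Where groups lay under the negative controls, these fitted values are not exact. With those controls as floor they were -8.02 for Sparc, -6.32 for Fst, -6.16 for Bgn, 3.49 for Bub1 and -3.31 for Id3 against MCSF. Against CD146 cells they were -8.06 for Il6, -7.76 for Selp, -7.64 for Arg2, -7.48 for Fst, 5.90 for Cdca3, 5.55 for Ube2c and 4.95 for Bub1. Against Kupffer cells they were -8.56 for Mpo, -8.48 for Ppbp and -4.69 for Cxcl5. The 3 sets share the 6 Ito arrays. For Bub1, Mki67, Ch25h, Ccl2, Ccl7 and Ccl12, replicate 3 of the MCSF cultures of 3 days lay above the other 2 of its group.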

How the results depend on the processing

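Without further normalization 9195 genes changed between the days, 7655 higher and 1540 lower, and with a 2-fold minimum 3211, 1661 higher and 1550 lower. Leaving out each array gave 4637 to 6067 changed genes, 2367 to 3053 higher and 2270 to 3014 lower. The replicate numbers do not pair the samples: deviations of same-numbered arrays correlated at -0.12, -0.02 and 0.02 and no array matched its own number best, and with a replicate block 3030 genes were higher and 2821 lower. Against MCSF the difference of time changes gave 2124 higher and 759 lower without normalization; without each array, 1346 to 3795 in all, 524 to 1858 higher and 822 to 1937 lower. Against CD146 it gave 3135 higher and 1301 lower without normalization, 2680 (1354 higher, 1326 lower) in a fit of 48 arrays, and 3515 to 4347 (1738 to 2065 higher, 1757 to 2282 lower) without each array. Against Kupffer cells it gave 480 (275 higher, 205 lower) in that fit and 992 to 1288 (575 to 686 higher, 414 to 638 lower) without each array. Refits of 139 of the genes named numbered 2361. Of these, 2298 kept direction and side of the threshold, 25 lost the call, 17 gained one and 21 changed sign. All 21 were in genes that did not pass. Those were, without normalization, Col1a1 at 0.22, Gp9 at 0.049, Id3 at 0.31 and Mpo at 0.45; with median centring, Clec4f at -0.081 and Pdgfrb at -0.18; floored at the negative controls, Clec4f, Des, Pdgfrb and Reln at -0.11 and Mpo at 0.038; and, over the fits without 1 array, Itga2b at -0.20 to 0.83, Mrc1 at -0.27 to 0.32, Mpo at -0.26 to 0.10, Id3 at -0.27 to 0.0041, Col1a1 at -0.56 to 0.0054 and Pdgfrb at -0.12 to 0.23. Of 578 refits of differences of time changes, 562 stayed and 16 lost the call, all of Bub1 or Mki67 against MCSF. The causes were not tested. Signal near the negative controls limits what can be read for dim genes: 1304 called genes lay under them in both groups.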
